A study of Mus musculus with 9 samples.

Results

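Microglia are the resident macrophages of the brain, and 9 genes that mark them (Tmem119, P2ry12, Cx3cr1, Csf1r, Itgam, Aif1, Trem2, Tyrobp and Ptprc) were followed in preparations of brain microvessels and in the brain tissue left without them. The members were the 9 named genes, each read from the probe sets that the platform annotation assigns to that gene alone. This gave 14 of 45101 probe sets, and for each gene the brightest of its sets by mean was used, which made 9 of 18194 genes. The remaining 5 probe sets served as a check. All 9 genes were among the 12009 that passed a filter on dim probe sets (3 or more arrays at a value of 4 or higher).

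Expression was measured on 9 short-oligonucleotide arrays, 1 array per sample, in 3 groups of 3 samples that the labels call biological replicates. Embryonic fragments are short pieces of small brain vessels from NMRI embryos at embryonic day 18.5. The embryonic rest of brain is brain tissue of NMRI embryos of that age from which the fragments are missing. Adult fragments came from C57/SV129 mice of mixed background aged 1 year, of which 1 was female and 2 were male. RNA of both embryonic groups was extracted with a micro kit and that of the adults with a mini kit, so age, strain and kit cannot be told apart between the fragment groups. Embryo sex and the isolation procedure are not stated in the labels, and 1 label of rest of brain replicate 3 writes the embryonic day differently from its other labels. Whether the fragments of 1 sample come from 1 animal or from several is not stated either. Values are on the log2 scale, so that a difference of 1 is a doubling, and a value of 4 was taken as the edge of background. In such bulk RNA, fewer microglia and less RNA per microglial cell cannot be told apart.

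Microglia descend from yolk sac progenitors that enter the brain before birth and then maintain themselves there. Their survival depends on Csf1r, the receptor of the growth factors Csf1 and Il34, and their identity as myeloid cells on the transcription factor PU.1, the product of Spi1. Many of them touch the walls of small vessels. A different macrophage, the perivascular macrophage, lies in the space around the vessels and carries scavenger receptors such as Mrc1, Cd163 and Lyve1. Tmem119, P2ry12 and Cx3cr1 are used as markers of resting microglia. Cx3cr1, Csf1r, Itgam, Aif1, Trem2, Tyrobp and Ptprc are also made by other macrophages and, in part, by other blood cells.

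The cell type makeup of the samples was checked by lists of marker genes. All 10 endothelial markers were higher in embryonic fragments than in rest of brain, with a median log2 difference of 7.42, and all 7 neuronal markers were lower there. Array medians lay between 3.58 and 3.67. Most markers of circulating leukocytes stayed low in the fragments. The filter was passed by 0 of 8 lymphocyte markers and 1 of 4 monocyte markers, and the latter, Ccr2, was flat at 4.36 to 4.39 on the 9 arrays. The neutrophil genes S100a8 and S100a9 passed the filter and were lower in both fragment groups than in rest of brain; against adult fragments neither was called without adult replicate 1 or without adult replicate 2, and 1 of them was called without rest of brain replicate 2 or without replicate 3. Of the B cell gene Ms4a1, adult fragments replicate 3 held 6.67, against 4.73 and 3.75 in adult replicates 1 and 2. Adult fragments replicate 3 was also above 4 for the monocyte markers Plac8 (5.47) and Itgal (4.79) and the lymphocyte marker Cd79b (4.25). Embryonic fragments replicate 3 was above 4 for Plac8 (4.32) and Cd79b (4.5). Rest of brain replicate 2, the highest array for S100a8 (9.1) and S100a9 (6.5), was the only array above 4 for the neutrophil markers Ngp (7.7) and Camp (6.08). The filter does not show signal on so few arrays.

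A single embryonic fragment array stood apart for the microglial genes. Embryonic fragments replicate 1 was the lowest of its group for 9 of 9 genes, whereas it was the lowest for 37.4% of all genes tested. Its median deviation from the group mean over the 9 genes was -1.34 on the log2 scale, against 0.61 in replicate 2 and 0.83 in replicate 3. Over 22 other microglial and phagocyte genes its median deviation was -1.28 and over 10 perivascular macrophage markers -0.75, but over 10 endothelial markers it was 0.15. Microglial transcripts were thus low in that sample while endothelial ones were not. In adult fragments, replicate 3 was the highest for 8 of 9 genes (51.1% of all genes tested), with a median deviation of 0.65. Results are given with all arrays, and the differences of the 9 genes between the fragment groups also without embryonic fragments replicate 1.

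**Figure D1:**
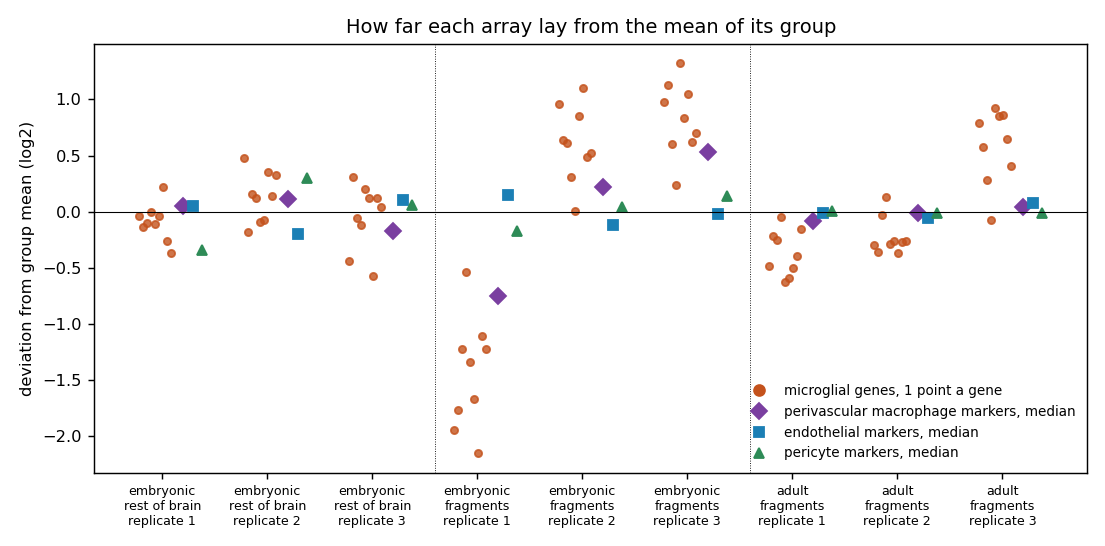
Deviation of each array from its group mean (log2) for the 9 arrays. The 9 microglial genes are drawn as 1 point a gene, and the perivascular macrophage, endothelial and pericyte markers as the median of each list. On embryonic fragments replicate 1 the median of the 9 microglial genes was -1.34 and that of the endothelial markers 0.15.

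The first comparison asks whether microglial transcripts go with the vessels when these are taken from the embryonic brain. All 9 genes were higher in embryonic fragments than in the embryonic rest of brain, and for each of them the lowest fragment array lay above the highest rest of brain array. The share of all tested genes called higher in this comparison was 28.9%, and 33.1% lay higher without overlap of the groups. The median log2 difference of the 9 genes was 2.77, from 1.71 (Itgam) to 3.93 (Tyrobp), against a median of -0.10 over all genes tested. A gene was called at a limma p under 0.05 after Benjamini-Hochberg adjustment over the 12009 genes. The genes are described by role: first the markers of resting microglia, then the growth factor receptor, the integrin, the cytoskeletal protein, the lipid-sensing receptor with its adaptor, and the common leukocyte phosphatase.

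Tmem119 encodes a membrane protein that within the brain is known from microglia. It read 5.83, 6.36 and 5.43 in the 3 rest of brain arrays, 6.70, 9.60 and 9.62 in embryonic fragments, and 11.18, 11.36 and 12.45 in adult fragments. The 3 groups formed 3 steps without overlap, although embryonic replicate 1 lay close to the highest rest of brain array. The group means were 5.87 ± 0.46, 8.64 ± 1.68 and 11.66 ± 0.69 (SD, n = 3 each). Embryonic fragments exceeded rest of brain by 2.77 ± 0.75 (SE; 6.82-fold, limma adjusted p = 0.00994), and adult exceeded embryonic fragments by 3.02 ± 0.75 (8.12-fold, adjusted p = 0.00801). Without embryonic replicate 1 these differences were 3.74 ± 0.40 and 2.05 ± 0.40, both called.

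P2ry12 is the ADP receptor by which microglial processes move towards ATP released at an injury. Its values were 7.99, 7.96 and 8.45 in rest of brain, 8.85, 11.27 and 11.76 in embryonic fragments, and 12.27, 12.12 and 13.06 in adult fragments. The groups did not overlap here either. The step from rest of brain to embryonic fragments was 2.49 ± 0.66 (5.63-fold, limma adjusted p = 0.00927), and that from embryonic to adult fragments 1.86 ± 0.66 (3.62-fold, adjusted p = 0.0404). Without embryonic replicate 1 the step to adult fragments was 0.97 ± 0.31 (adjusted p = 0.0311). It missed the threshold when any rest of brain array was left out (adjusted p from 0.0601 to 0.0614) and without adult replicate 1 (0.0728), 2 (0.06) or 3 (0.116).

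Cx3cr1 is the receptor of fractalkine, a chemokine that neurons carry on their surface. It stood at 9.82, 10.09 and 9.86 in rest of brain, 11.48, 13.31 and 13.29 in embryonic fragments, and 13.24, 13.45 and 13.77 in adult fragments. Embryonic fragments were 2.77 ± 0.44 above rest of brain (6.82-fold, limma adjusted p = 0.000506). The 2 fragment groups overlapped, with a difference of 0.79 ± 0.44 that missed the threshold (adjusted p = 0.16) and was 0.19 ± 0.17 without embryonic replicate 1. A second, dimmer probe set was under 4 on all rest of brain arrays and gave 3.08 ± 0.66 for embryonic fragments against rest of brain (adjusted p = 0.00278) and 1.54 ± 0.66 for adult against embryonic fragments (adjusted p = 0.0751).

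Csf1r, the growth factor receptor on which microglia depend, had the narrowest spread of the 9 within each fragment group by its brightest probe set. It read 12.36, 12.47 and 12.24 in rest of brain, 13.65, 14.50 and 14.43 in embryonic fragments, and 14.68, 14.86 and 14.66 in adult fragments. The 3 groups did not overlap. The difference between embryonic fragments and rest of brain was 1.84 ± 0.22 (3.58-fold, limma adjusted p = 6.57e-05), and that between the fragment groups 0.54 ± 0.22, which missed the threshold (adjusted p = 0.0597). Without embryonic replicate 2 the latter passed it (adjusted p = 0.0338), and without embryonic replicate 1 it was 0.27 ± 0.13 (adjusted p = 0.111). The other 2 probe sets of Csf1r gave 3.34 ± 0.39 and 3.09 ± 0.49 for the embryonic comparison and 0.39 ± 0.39 and 0.10 ± 0.49 between the ages.

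Itgam, the alpha chain of the complement receptor integrin CD11b/CD18, was the dimmest case. In rest of brain it was at background, at 2.69, 2.7 and 3. Embryonic fragments held 3.17, 4.52 and 5.83, so that 1 of 3 arrays was under 4, whereas adult fragments held 7.18, 7.53 and 8.73. Adult fragments thus stood clear of both embryonic groups. The fitted difference between embryonic fragments and rest of brain was 1.71 ± 0.63 (limma adjusted p = 0.0395), a rise of at least 1.42-fold when the fragment mean is set against a value of 4. That call ended when the values were floored at 4 (0.78, adjusted p = 0.203) and when any of 6 single arrays was left out: rest of brain 1, 2 or 3 (0.0967, 0.0959 and 0.075), embryonic fragments 2 or 3 (0.0841 and 0.117), or adult fragments 2 (0.0528). Adult exceeded embryonic fragments by 3.31 ± 0.63 (9.9-fold, adjusted p = 0.002), and by 2.64 ± 0.51 without embryonic replicate 1.

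Aif1 encodes Iba1, the actin-binding protein used to stain microglia and other macrophages. The rest of brain arrays held 6.55, 6.52 and 6.71, embryonic fragments 8.27, 10.79 and 10.77, and adult fragments 9.50, 9.83 and 10.94. Embryonic fragments were 3.35 ± 0.66 higher than rest of brain (10.2-fold, limma adjusted p = 0.00171). Between the ages the arrays were interleaved, and the difference was 0.15 ± 0.66 (adjusted p = 0.887). It was -0.69 ± 0.37 without embryonic replicate 1 (adjusted p = 0.158), so its sign was not settled. Aif1 was read from a probe set whose identifier marks shared probes.

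Trem2 is a receptor for lipids and lipoproteins, and Tyrobp (DAP12) is the adaptor through which it signals. Trem2 read 4.48, 4.61 and 3.68 in rest of brain, 5.35, 8.60 and 8.54 in embryonic fragments, and 8.43, 8.56 and 9.79 in adult fragments. Tyrobp read 7.94, 8.33 and 8.32, then 11.02, 12.62 and 12.74, then 12.08, 12.20 and 13.12 in the same order of groups. For both genes the fragment groups overlapped each other and lay above rest of brain. Trem2 was 3.24 ± 0.83 higher in embryonic fragments than in rest of brain (9.46-fold, limma adjusted p = 0.00738), with 1 of 3 rest of brain arrays under 4. For Tyrobp that difference was 3.93 ± 0.46 (15.2-fold, adjusted p = 6.76e-05). Adult minus embryonic fragments came to 1.43 ± 0.83 for Trem2 (adjusted p = 0.175) and 0.34 ± 0.46 for Tyrobp (adjusted p = 0.57). Neither passed the threshold, and without embryonic replicate 1 the values were 0.35 and -0.22. The Trem2 values come from a probe set whose identifier marks shared probes. The other Trem2 probe set, without that mark, stayed between 3.02 and 3.12 on the 9 arrays, at background, and followed none of this.

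Ptprc encodes CD45, a phosphatase on all nucleated blood cells, microglia included. It stood at 7.28, 7.98 and 7.69 in rest of brain, 9.88, 11.62 and 11.80 in embryonic fragments, and 12.01, 11.90 and 12.57 in adult fragments. The groups did not overlap. Embryonic fragments exceeded rest of brain by 3.45 ± 0.47 (10.9-fold, limma adjusted p = 0.000188). Adult minus embryonic fragments was 1.06 ± 0.47 and missed the threshold (adjusted p = 0.087), but passed it without embryonic replicate 3 (0.0432). Without embryonic replicate 1 it was 0.45 ± 0.26 (adjusted p = 0.183). Its other probe set was under 4 on 8 arrays and at 5.70 on embryonic fragments replicate 2.

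**Figure D2:**
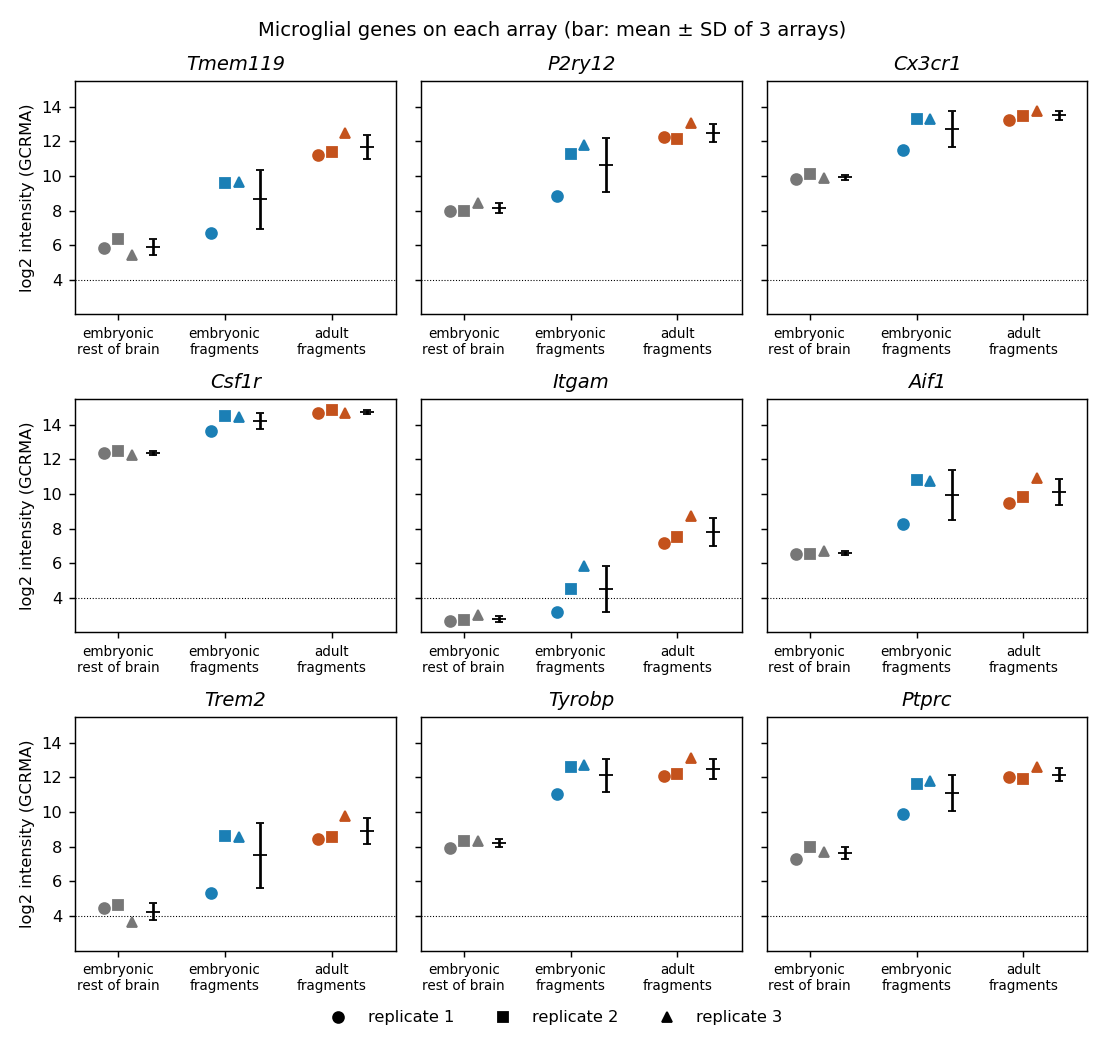
Log2 value of each of the 9 genes on each of the 9 arrays, by group (rest of brain, embryonic fragments, adult fragments). The rest of brain arrays are the lowest for each gene, and embryonic fragments replicate 1 lies below replicates 2 and 3 in every panel, as for Tmem119 at 6.70 against 9.60 and 9.62.

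Without embryonic fragments replicate 1, all 9 genes were again called higher in embryonic fragments than in rest of brain. The median was 3.74 and the range from 2.11 (Csf1r, by its brightest probe set) to 4.48 (Tyrobp). The summed linear level of the 9 genes ran from 6808 to 7795 in rest of brain, 19661 to 48982 in embryonic fragments and 52888 to 72230 in adult fragments.

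The second comparison sets the vessels of adults against those of embryos. Of the 9 genes, 3 were higher in adult fragments (Tmem119, P2ry12 and Itgam), 0 were lower and 6 did not pass the test. Over all genes tested 27.4% were called higher and 29.7% lower. The median log2 difference of the 9 genes was 1.06, and 0.35 without embryonic replicate 1, where the same 3 genes were called. The median over all genes tested was -0.02. The fragment groups did not overlap for 5 of the 9 genes (Tmem119, P2ry12, Csf1r, Itgam and Ptprc), and 30.3% of all genes tested lay higher in adult fragments without overlap. The largest differences were Itgam at 3.31, Tmem119 at 3.02 and P2ry12 at 1.86. Without a call followed Trem2 at 1.43, Ptprc at 1.06, Cx3cr1 at 0.79, Csf1r at 0.54, Tyrobp at 0.34 and Aif1 at 0.15. Of the 3 markers of resting microglia, Cx3cr1 was thus not called. A direct test between genes was not made. Left out singly, the arrays gave between 2 and 4 genes called. The summed linear level of 10 endothelial markers was 113293 to 127441 in embryonic and 116535 to 129307 in adult fragments, and that of 6 pericyte markers 65680 to 77429 and 82448 to 88124. Markers of other brain cells moved with age as well: 4 of 5 astrocyte markers were higher in adult fragments and 1 lower, with a median of 1.36, and of 4 oligodendrocyte lineage markers 2 were higher and 1 lower, with a median of 1.54. The glutamate transporter gene Slc1a2 was 8.80 ± 0.71 higher and the myelin gene Mbp 3.48 ± 0.45 higher. The part of these cells in the values of the microglial genes was not tested.

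Adult fragments were also set against the embryonic rest of brain, a comparison that differs in age, strain, extraction kit and tissue and shares its samples with the other comparisons. All 9 genes were higher in adult fragments, against 33.1% of all genes tested, and all 9 without overlap, against 34.9%. The median log2 difference was 4.35. By the probe sets used, Csf1r differed the least, by 2.38 (5.2-fold), and Tmem119 the most, by 5.79 (55.4-fold, limma adjusted p = 0.000102). The other probe sets of Csf1r gave 3.72 and 3.19. By the former Csf1r would not be the least, as Aif1 differed by 3.5. Itgam was at least 14.1-fold higher.

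**Figure D3:**
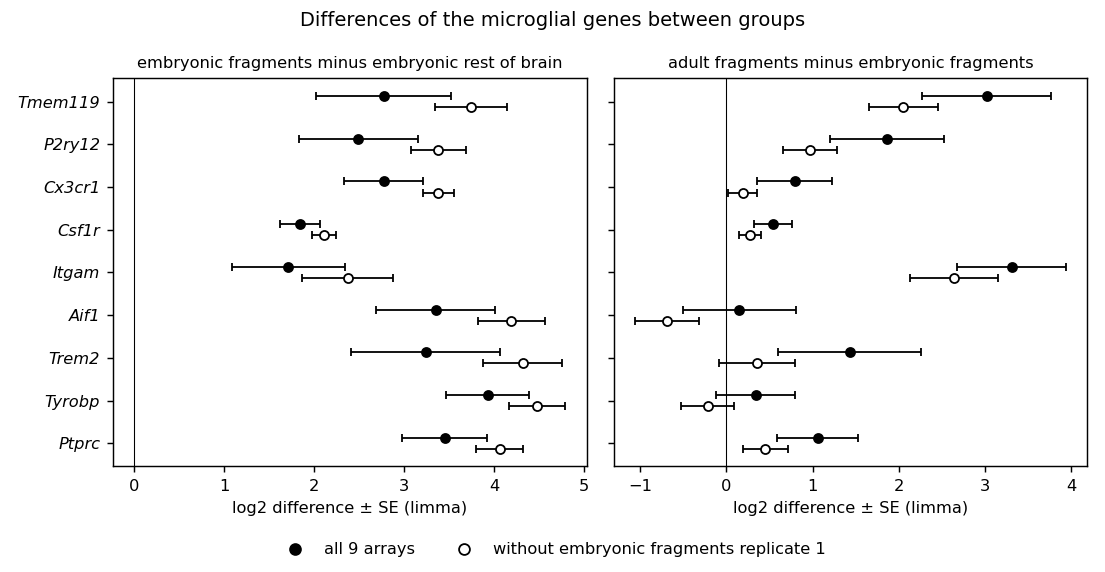
Log2 difference of each gene with its standard error from the limma fit, for embryonic fragments minus rest of brain and adult minus embryonic fragments. All 9 genes lie above 0 in the former, from 1.71 to 3.93, and in the latter Tmem119 (3.02), P2ry12 (1.86) and Itgam (3.31) were called.

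The 9 genes went up and down together over the arrays. Pearson's r between members over the 9 arrays ran from 0.796 to 0.996 over 36 pairs, with a median of 0.958. These arrays share 3 groups and the low replicate, so the coefficients describe the pattern and are not tested. Among 5777 further genes with a range of at least 2, the 10 most like the mean profile of the members had r from 0.992 to 0.998, and 747 genes reached 0.9. They were Plek, Cd53, Mpeg1, Ikzf1, BC035044, Otulinl, Rgs10, Asah1, Slc15a3 and Il10ra. Plek (pleckstrin, a kinase substrate of blood cells) read 7.24, 7.59 and 7.43 in rest of brain, 9.03, 11.01 and 11.12 in embryonic fragments, and 11.44, 11.21 and 12.35 in adult fragments. Its embryonic replicate 1 was low as well.

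Because the genes moved together, the stretch before their transcription starts was read for letters that myeloid ETS factors such as PU.1 are known to bind. RefSeq windows of 250 bases before the annotated start (GRCm38.p6) were at hand for 6 of the 9 genes. The letters searched, on both strands, were GAGGAA, found in 23.3% of all windows, and GGAAGT, found in 19.7%, and matches of the pair can overlap. Either was found in 5 of the 6 windows, and in 36.7% of 32851 windows of all genes. Among the windows of the genes, 4 do not overlap the annotated gene, and 3 of these hold a match: P2ry12, Itgam and Trem2, a nucleotide receptor, an integrin and a lipid receptor. They are shown 5′ to 3′ on the strand of the gene, with the matches in capitals. The fourth, Cx3cr1, holds neither.
P2ry12: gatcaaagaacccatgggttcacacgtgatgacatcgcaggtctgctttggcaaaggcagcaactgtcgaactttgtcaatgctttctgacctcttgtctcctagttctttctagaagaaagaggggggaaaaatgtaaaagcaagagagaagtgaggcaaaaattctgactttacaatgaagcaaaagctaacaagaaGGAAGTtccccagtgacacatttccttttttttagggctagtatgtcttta
Itgam: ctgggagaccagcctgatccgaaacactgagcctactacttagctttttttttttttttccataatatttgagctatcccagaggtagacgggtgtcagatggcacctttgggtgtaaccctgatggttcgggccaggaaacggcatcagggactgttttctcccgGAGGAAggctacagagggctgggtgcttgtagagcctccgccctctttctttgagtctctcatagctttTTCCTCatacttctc
Trem2: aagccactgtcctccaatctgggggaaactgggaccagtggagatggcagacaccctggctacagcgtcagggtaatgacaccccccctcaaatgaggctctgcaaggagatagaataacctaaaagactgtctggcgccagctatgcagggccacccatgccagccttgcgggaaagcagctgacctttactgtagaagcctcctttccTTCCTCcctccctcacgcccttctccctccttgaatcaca
The P2ry12 window is chr3:59262986-59263235 on the minus strand, with GGAAGT 51 bases before the start. The Itgam window is chr7:128062390-128062639 on the plus strand, with GAGGAA 84 bases and its reverse 15 bases before the start. The Trem2 window is chr17:48346151-48346400 on the plus strand, with the reverse of GAGGAA 40 bases before the start. A match of this kind is a description of letters and not a binding site. The letters were chosen with the sequences and the expression values in view.

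Other genes of microglia and mononuclear phagocytes followed the same direction in the embryo. Of 22 with a probe set, 19 were higher in embryonic fragments than in rest of brain and 0 lower, with a median difference of 3.06. The shares of all genes tested were 28.9% and 37.2%. C1qb, a chain of complement C1q, was 3.98 ± 0.44 higher (15.8-fold, limma adjusted p = 4.29e-05), and the Fc receptor gene Fcgr3 3.94 ± 0.46 (15.4-fold, adjusted p = 6.94e-05). Spi1, which encodes PU.1, was 3.66 ± 0.64 higher (adjusted p = 0.000841), with 2 of 3 rest of brain arrays under 4. Of the 3 that did not pass, Sall1, a transcription factor of microglia that neural progenitors also express, read 10.71, 10.54 and 10.59 in rest of brain and 8.63, 10.62 and 10.54 in embryonic fragments.

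Between the ages 11 of these 22 were higher in adult fragments and 0 lower, with a median of 0.96. The shares of all genes tested were 27.4% and 29.7%. The fructose transporter gene Slc2a5 read 2.15 to 2.20 on the 6 embryonic arrays and 8.64, 8.83 and 9.53 in adult fragments, at least 32-fold higher. It passed the filter through the adult arrays alone, so its call among the 11 gives no support for the difference. Selplg, a ligand of selectins, was 4.15 ± 0.55 higher (17.8-fold, limma adjusted p = 0.00026) and the lectin gene Siglech 3.74 ± 1.04 higher (13.3-fold, adjusted p = 0.0138). Siglech was at background, at 2.23, in embryonic replicate 1, and without that array its difference was 2.31 ± 0.39. Sall1 was 2.24 ± 0.47 higher (adjusted p = 0.0032), and 1.59 ± 0.15 higher without embryonic replicate 1. Selplg was 3.40 ± 0.22 higher without it. Spi1 did not share this direction, with a difference of -1.25 ± 0.64 (adjusted p = 0.126). Without embryonic replicate 1 the list held 11 higher and 3 lower (Spi1, Cd68 and Fcer1g), and without adult replicate 3 it held 7 higher.

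The ligands of these receptors gave mixed results. Csf1, a ligand of Csf1r, was 2.83 ± 0.26 higher in embryonic fragments than in rest of brain (limma adjusted p = 1.24e-05), and between the ages it differed by -0.45 ± 0.26 (adjusted p = 0.174). Icam1, an adhesion molecule of endothelium that binds integrins with the CD18 chain, was at least 134-fold higher in embryonic fragments. Cx3cl1, which encodes the ligand of Cx3cr1, read 6.18, 6.05 and 6.73 in rest of brain, 6.73, 6.66 and 6.58 in embryonic fragments, and 9.72, 9.64 and 10.25 in adult fragments. Its receptor was thus higher in embryonic fragments than in rest of brain while the ligand differed by 0.34 ± 0.21 (adjusted p = 0.192), and between the ages the ligand was 3.21 ± 0.21 higher (adjusted p = 4.49e-06). Clu, a lipoprotein that Trem2 binds, was lower in embryonic fragments than in rest of brain by a difference of -2.23 ± 0.40 and 4.46 ± 0.40 higher in adult than in embryonic fragments. Apoe, a lipoprotein that Trem2 also binds, did not pass in either with all arrays (0.57 and -0.46). Without embryonic replicate 1 it was called in both, 0.88 ± 0.19 higher in embryonic fragments than in rest of brain (adjusted p = 0.00412) and lower in adult than in embryonic fragments (-0.77 ± 0.19, adjusted p = 0.0103). Il34 and Cd22 did not pass the filter.

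Genes of the signalling chain behind the receptors were tested in 14 cases. In embryonic fragments 13 were higher than in rest of brain and 0 lower, against 28.9% and 37.2% of all genes tested. Their median was 4.06. Lcp2, the adaptor SLP-76, showed the highest fitted difference, 6.34 ± 0.37, with 2 of 3 rest of brain arrays under 4. Arhgdib was 4.42 ± 0.42 higher. Between the ages 2 were higher (14.3%, against 27.4% of all genes tested) and 4 lower (28.6%, against 29.7%). Without embryonic replicate 1, 6 were lower, and without embryonic replicate 2, 2 were lower. Rac2, a GTPase of blood cells, was lower by a difference of -2.43 ± 0.71 (limma adjusted p = 0.0172) and Lcp2 by -1.93 ± 0.37 (adjusted p = 0.00207). Itgb2, the CD18 chain that pairs with Itgam, read 4.75, 5.27 and 4.85 in rest of brain, 7.06, 8.96 and 9.05 in embryonic fragments, and 11.33, 11.15 and 12.17 in adult fragments. It was 3.19 ± 0.52 higher in adult than in embryonic fragments (limma adjusted p = 0.000798), beside 3.31 ± 0.63 for Itgam, so both chains of the receptor were higher in the adult samples. Syk, the kinase that binds phosphorylated Tyrobp, was lower in adult fragments, with a difference of -1.87 ± 0.26 (adjusted p = 0.000324), and its target Plcg2 was 1.40 ± 0.31 higher (adjusted p = 0.00456).

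Genes known to rise in activated microglia were tested in 9 cases. Of these, 5 were higher and 1 lower in embryonic fragments than in rest of brain, against 28.9% and 37.2% of all genes tested. Without embryonic replicate 2 or without replicate 3, 3 were higher, and without adult replicate 3, 2 were lower. Between the ages 3 were higher and 2 lower, but 2 higher and 3 lower without embryonic replicate 1, and 2 higher and 2 lower without adult replicate 3. With all arrays the shares were 33.3% higher and 22.2% lower, near the 27.4% and 29.7% of all genes tested. Clec7a, a receptor for fungal glucans, was 2.73 ± 0.65 higher in embryonic fragments than in rest of brain by the fit, at least 2.55-fold. It read 2.04, 3.20 and 2.63 in rest of brain, 3.77, 6.15 and 6.13 in embryonic fragments, and 9.06, 9.20 and 10.21 in adult fragments, 4.14 ± 0.65 above the embryonic ones (17.6-fold, limma adjusted p = 0.000656). Lgals3 (galectin 3) was 2.45 ± 0.30 higher in embryonic fragments than in rest of brain, and Fabp5, a fatty acid binding protein, was lower there by a difference of -1.06 ± 0.18. Between the ages the tetraspanin gene Cd9 was 1.70 ± 0.32 higher in adult fragments (adjusted p = 0.00187). Igf1, a growth factor that other brain and vessel cells also make, was lower in adult fragments by a difference of -4.95 ± 0.57 (adjusted p = 0.000111). Cst7, a cystatin of activated microglia, stood at 2.94, 2.6 and 7.18 in adult fragments and did not pass the filter. Only adult replicate 3 was above background for it.

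Markers of perivascular macrophages were high in embryonic fragments and lower in both other groups, apart from Cbr2 in adult fragments. All 10 tested were higher in embryonic fragments than in rest of brain, against 28.9% of all genes tested, with a median of 4.63. Cd163, a receptor for haemoglobin complexes, was 6.03 ± 0.64 higher (1 of 3 rest of brain arrays under 4), and Stab1, a scavenger receptor, 5.85 ± 0.18 higher. Between the ages 9 of 10 were lower in adult fragments and 0 higher, against 29.7% and 27.4% of all genes tested. Their median was -3.90. The mannose receptor gene Mrc1 read 10.16, 10.18 and 9.74 in rest of brain, 14.13, 14.95 and 15.36 in embryonic fragments, and 10.20, 10.13 and 9.58 in adult fragments. For Mrc1, adult fragments and rest of brain thus overlapped, and embryonic fragments lay far above both. Of the 10 markers, 4 were called higher and 3 lower in adult fragments than in rest of brain, against 33.1% and 42.9% of all genes tested. Lyve1, a hyaluronan receptor, was 217-fold lower in adult than in embryonic fragments (difference -7.76 ± 0.57, limma adjusted p = 8.05e-06), and F13a1, a clotting factor chain that macrophages make, 61.9-fold lower (difference -5.95 ± 0.32). The summed linear level of the 11 listed markers ran from 2824 to 3757 in rest of brain, 52227 to 113947 in embryonic fragments and 3486 to 3793 in adult fragments, and Siglec1 was at background throughout. The 9 microglial genes had 0 called lower with age. Several of them (Cx3cr1, Csf1r, Itgam, Aif1, Trem2, Tyrobp and Ptprc) are also made by other macrophages. The part of perivascular macrophages in the embryonic values of any of the 9 genes was not tested. The same counts, 10 higher in the embryo and 9 lower with age, were found without embryonic replicate 1.

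**Figure D4:**
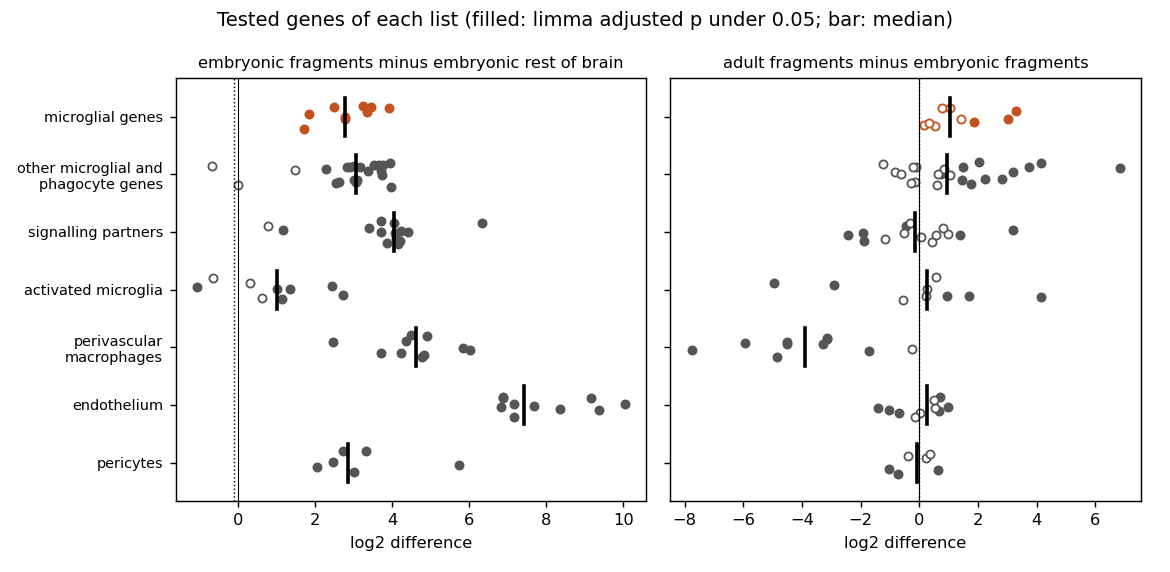
Log2 difference of each tested gene by list, for embryonic fragments minus rest of brain and adult minus embryonic fragments; each point is 1 gene. The medians of the 9 microglial genes are 2.77 and 1.06, and those of the perivascular macrophage markers 4.63 and -3.90.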

How the data were processed

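The authors deposited log2 values for each probe set and array. The submitters' processing notes name GCRMA 2.6.0 and R 2.4.1. This method corrects for background by probe base composition, scales arrays to like distributions by quantiles and summarises each probe set, so a change in total RNA per cell cannot be seen. That the scale is log2 was read from the range of the values (0.767 to 16.8). Scanner files were not used here, and 0 per-sample columns were left unused. The number of arrays limits the precision.

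A limma model (version 3.58.1 under R 4.3.3; lmFit, then eBayes) held all 9 arrays with a mean per group, its tests were 2-sided, and the p-values of each comparison were adjusted by Benjamini-Hochberg over 12009 genes. Folds are 2 to the power of the log2 difference. A group under 4 on all 3 arrays counted as at background, and "at least" folds set the other group's mean against 4. The script was tested on simulated data. The members, gene lists and motifs were chosen with earlier results of these data known. All 9 members are named. From the lists of genes related to microglia and their receptors the text names the 2 called genes with the largest differences in the main direction and the 1 largest in the other where it gives a list in full, and beside these single genes for their role; the 10 genes most like the members were ranked by r. Genes named beyond this (Ms4a1, Plac8, Itgal, Cd79b, Cst7, S100a8, S100a9, Ngp, Camp) were chosen after their values were seen.

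Deviations from the group means correlated at 0.19, 0.20 and 0.22 between same-numbered embryonic samples, against -0.21 to -0.02 for other embryonic pairs. Adult and embryonic fragments of the same number gave 0.03, -0.08 and 0.21, and adult fragments and rest of brain -0.09, -0.07 and 0.13. Values as high also arose across the ages between different numbers. Adult fragments replicate 2 gave 0.21 with embryonic fragments replicate 1 and 0.20 with rest of brain replicate 1. The correlations thus cannot settle whether the numbers pair the embryonic samples. The main fit left the numbers out, and a block by number is among the alternatives. Alternatives were other scalings, a floor or offset, other filters, other probe sets, array weights, fits of the compared groups alone, a replicate block and leaving out each array.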

Additional observations from a re-analysis of the deposited data

How the results depend on the processing

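Over the alternatives, 173 of the single-gene results for embryonic fragments against rest of brain kept their call and direction and 10 lost the call, each of these for Itgam. Besides the floor and the left-out arrays, Itgam lost it with an offset of 16 (0.85, limma adjusted p = 0.115), with no filter (0.0944) and with both groups fitted alone (0.0514). For adult against embryonic fragments 164 kept their call and direction, 10 lost the call (P2ry12, also with no filter, array weights, both groups alone and the block), 4 gained it (Csf1r with quantile scaling, 0.0452, and cyclic loess, 0.0271, and without embryonic replicate 2; Ptprc without embryonic replicate 3) and 5 changed sign. The sign changes were in genes without a call: Aif1 at -0.54 with array weights, -0.69 without embryonic replicate 1 and -0.28 without adult replicate 3, and Tyrobp at -0.13 with array weights and -0.22 without embryonic replicate 1; over the left-out arrays Aif1 ran from -0.69 to 0.57 and Tyrobp from -0.22 to 0.65. All 183 for adult fragments against rest of brain kept theirs. Cyclic loess moved the median over all genes in that comparison from -0.17 to -0.03. Without probe sets whose identifiers end in _s_at, _x_at or _a_at, 5 genes could be tested. Of these, 5 were called higher in embryonic fragments and 5 in adult fragments than in rest of brain. The drop from 9 follows from the 4 genes that have no tested probe set there. Aif1 and Trem2 were read from _s_at sets, and P2ry12 and Ptprc from _a_at sets, an ending that marks transcripts of the same gene. Leaving out each array gave 8 to 9 genes called for embryonic fragments against rest of brain, 2 to 4 between the ages and 9 to 9 for adult fragments against rest of brain. With the replicate number as a block, same-numbered embryonic samples were treated as pairs. This gave 9 genes called in the embryonic comparison, and no call of a member changed there. Between the ages, where samples share only a number, the block gave 2 genes called, and 9 in adult fragments against rest of brain. Other microglial genes higher with age were 7 with array weights and 6 with both groups fitted alone, against 11. The counts without embryonic replicate 1 for the lists were chosen after seeing the data. A block for slide or scan date was not run. Values near 4 lie close to background, which limits Itgam and Trem2 in rest of brain.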

Other observations

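Differences between microglial genes on the same array, picked after the values were seen and given without a test, are listed here. Each is set against its own value in another group, since probe sets differ in brightness. Tmem119 minus Aif1 was -1.57, -1.19 and -1.15 in embryonic fragments, low replicate included, and 1.68, 1.53 and 1.51 in adult fragments. In rest of brain it was -0.72, -0.17 and -1.28. P2ry12 minus Aif1 was 0.68 ± 0.27 (SD, n = 3) in embryonic and 2.39 ± 0.34 in adult fragments, with 1.54 ± 0.17 in rest of brain. Itgam minus Tyrobp was -7.62 ± 0.62 in embryonic and -4.65 ± 0.26 in adult fragments, and Tmem119 minus Tyrobp -3.48 ± 0.72 and -0.80 ± 0.12. Each pair sets a gene called higher with age against Aif1 or Tyrobp, the members with the smallest age differences. In all 4 pairs the embryonic and adult fragment arrays did not overlap, which follows at least in part from this choice.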
